A study of Mus musculus with 4 samples.

Results

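The 6 genes described here carry cholesterol into steroid-producing cells and turn it into progesterone: Star, Cyp11a1, Hsd3b1, Fdx1, Fdxr and Scarb1. They were chosen by name for their place in the pathway, as 6 of the 32285 genes counted. Earlier results of these data were known when they were chosen. They were measured by single-cell RNA sequencing (10x 3′ chemistry) in ovaries of female mice at 8 weeks of age, in 4 libraries, 2 from Fosl2F/F mice, in which loxP sites flank part of the Fosl2 gene on both alleles, and 2 from Fosl2cKO mice, which carry the same floxed alleles together with a Cyp19a1-Cre transgene. Fosl2 encodes FRA2, a member of the AP-1 family of transcription factors, and the Cyp19a1 promoter drives Cre in granulosa cells (GCs), so that theca, interstitial and stromal cells are not its labelled target. Littermates were used and their vaginal smears showed estrus. The libraries are named by group and number (Fosl2F/F 1 and 2, Fosl2cKO 1 and 2), and values are given in that order throughout. The study describes 2 per group for this experiment, but no label ties a library to a separate animal, so each p-value measures the spread between these 2 libraries per group, which may be technical in part.

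Progesterone synthesis begins when the scavenger receptor SR-BI (Scarb1) takes up cholesterol esters from lipoproteins. STAR moves free cholesterol to the inner mitochondrial membrane, where the side-chain cleavage enzyme CYP11A1 converts it to pregnenolone, and the 3β-hydroxysteroid dehydrogenase encoded by Hsd3b1 then makes progesterone. CYP11A1 needs electrons, which ferredoxin reductase (Fdxr) takes from NADPH and ferredoxin (Fdx1) carries to it. In the ovary the pathway runs in theca and interstitial cells, is acquired by mural GCs as the follicle matures, and is most active in the corpus luteum.

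The libraries held 11045, 28155, 8654 and 9255 barcodes, of which 8150, 19575, 6760 and 7053 were kept as single cells (41538 in all). Fosl2F/F 2 stood apart, with a median of 3655 unique molecular identifiers (UMIs, each one captured transcript) per cell against 11177 to 12465 in the others. Pairs of libraries shared 15 to 81 barcodes. Fosl2 itself was at 161, 167, 167 and 114 CPM (UMIs of the gene in 1000000 UMIs of the class) in GC-like cells, and the difference did not pass the test (log2 fold change -0.25, standard error (SE) 0.21, edgeR quasi-likelihood test, adjusted p = 1.0). Fosl2cKO 2 was lower than the controls in value and Fosl2cKO 1 was level with the controls. The loxP sites are described as flanking exons 2 and 4, and the annotation gives the gene 4 exons, so the deleted part reaches the last exon. Whether it takes in the 3′ end, where the tags were counted, is not given in the sources used here, so the groups are called below by their labels.

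Cells were clustered without the 6 genes and classes were named from marker genes. GC-like cells numbered 4566, 6580, 2200 and 2379, and a mural-like subset of them, the GCs of the follicle wall, 1492, 1007, 370 and 307. Theca-like cells numbered 292, 832, 160 and 379, and luteal-like cells 175, 1241, 330 and 312. A cluster led by Abcb1b and Hao2 held 361, 2135, 763 and 555 cells and is called interstitial here, a working name that rests on fewer than 3 marker genes. In mean over the 4 libraries, all 13 markers of the granulosa list were above 20 CPM in GC-like cells. The same held for all 7 of the theca list in theca-like and all 7 of the luteal list in luteal-like cells. The luteal marker Akr1c18 was below that limit in both Fosl2cKO libraries, with values given further below. Markers of macrophages, which are common in corpora lutea, summed to 14.1 to 43.6 CPM in these steroid-producing classes against 15908 to 17685 CPM in macrophage-like cells. Levels by class are given below as descriptions, since classes were made from the same cells. They are compared between classes for 1 gene at a time and not between genes.

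Star, which controls the entry of cholesterol into mitochondria, was abundant in interstitial cells of every library and in luteal-like cells of some. In interstitial cells it stood at 875, 767, 1415 and 860 CPM. In luteal-like cells it stood at 702, 906, 181 and 25.3 CPM. Both Fosl2F/F libraries thus lay far above both libraries labelled Fosl2cKO in luteal-like cells, and the groups overlapped in interstitial cells. After TMM scaling (edgeR's library scaling), 24.5% of genes tested in luteal-like cells were lower in both Fosl2cKO libraries. Theca-like cells held 97.1, 362, 299 and 102 CPM, and mural-like GCs 8.9, 29.2, 14.6 and 6.8 CPM. The mural-like values were in the range of endothelial-like cells (25.2, 30.1, 13.5 and 7.3 CPM) and macrophage-like cells (35.4, 44.7, 33.8 and 6.1 CPM), so that Star above that background was not detectable in mural-like GCs at this depth. Outside the steroid-producing classes, epithelial-like cells held 343, 519, 465 and 542 CPM, more than theca-like cells in each of the 4 libraries. On the GRCm38 build, Star lies on the plus strand at chr8:25806555-25815982, with 7 exons in GENCODE M21.

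Cyp11a1, the enzyme of the first committed step, was abundant in all 3 non-granulosa steroid classes. Interstitial cells held 8763, 6135, 5613 and 6514 CPM, luteal-like cells 6094, 8192, 5458 and 5233 CPM, and theca-like cells 6231, 2573, 2827 and 2216 CPM. Which of interstitial and luteal-like cells was higher varied between libraries. Mural-like GCs held 649, 395, 453 and 124 CPM, below theca-like cells in 4 of 4 libraries. All GC-like cells together held 243, 244, 148 and 55.7 CPM, which was 1.12 to 2.53 times the 217, 205, 58.6 and 41.9 CPM of endothelial-like cells, a class not known to make steroids. Macrophage-like cells held a mean of 258 CPM over libraries (72.2 to 412 CPM). Every value of all GC-like cells together lay within or below that range. The gene spans chr9:58006411-58027023 on the plus strand and has 9 exons.

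Hsd3b1, whose enzyme makes progesterone from pregnenolone, was abundant in mural-like GCs as well as in the other steroid classes. Mural-like GCs held 2890, 1986, 2239 and 2682 CPM, in the same range as theca-like cells (3191, 1880, 2275 and 2294 CPM) and below interstitial cells (3879, 3436, 4175 and 4266 CPM) in every library. Luteal-like cells varied most, at 1430, 3970, 2078 and 3840 CPM, with 1 library of each group low and 1 high. All GC-like cells held 1325, 847, 964 and 886 CPM, and endothelial-like cells 256, 143, 50.2 and 52.9 CPM. The near-identical paralogs Hsd3b6, Hsd3b2 and Hsd3b3 could split reads with Hsd3b1. In these classes Hsd3b6 was at most 5.9 CPM, and Hsd3b2 and Hsd3b3 were at most 0.6 CPM. Only uniquely mapped reads were counted, which leaves out reads shared by paralogs, so these counts cannot show how many were lost. Hsd3b1 lies on the minus strand at chr3:98852194-98859794, with 5 exons.

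The genes of the 2 electron carriers had their highest mean over libraries in interstitial cells. For Fdx1 luteal-like cells were higher in Fosl2cKO 1. Fdx1 stood at 3084, 3953, 3372 and 4388 CPM in interstitial cells and at 2887, 3015, 1954 and 2535 CPM in theca-like cells. Luteal-like cells held 2118, 3751, 3983 and 1075 CPM, with no separation of the groups. In mural-like GCs the level was 1116, 801, 483 and 306 CPM and in all GC-like cells 463, 343, 230 and 160 CPM. In each of these granulosa populations the 2 Fosl2F/F libraries were the higher ones and the groups did not overlap. After TMM scaling, both Fosl2cKO libraries were lower for 15.8% of genes tested in GC-like cells and 15.4% in mural-like GCs. In atretic-like GCs, a further subset named from markers, the level ran from 124 to 304 CPM. The lowest value there was that of Fosl2F/F 1, so the groups overlapped. Fdxr, the reductase that passes electrons to FDX1, was highest in interstitial cells (537, 432, 648 and 432 CPM) and above theca-like cells (454, 278, 326 and 263 CPM) in 4 of 4 libraries. Luteal-like cells held 436, 396, 283 and 188 CPM of Fdxr, mural-like GCs 142, 145, 181 and 110 CPM, and endothelial-like cells 44.7, 19.8, 14.8 and 9.4 CPM. Fdx1 occupies chr9:51943306-51963556 (4 exons) and Fdxr chr11:115268024-115277050 (12 exons), both on the minus strand.

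Scarb1, the lipoprotein receptor, was the one member whose highest level was luteal. Luteal-like cells held 1026, 2129, 1036 and 1219 CPM, theca-like cells 1006, 786, 537 and 787 CPM, and interstitial cells 485, 563, 376 and 484 CPM. Theca-like cells exceeded interstitial cells in every library, the reverse of the order seen for Star, Cyp11a1, Hsd3b1, Fdx1 and Fdxr. Endothelial-like cells, in which SR-BI is also known to act, held 459, 430, 354 and 372 CPM, and macrophage-like cells only 51.1, 158, 61.0 and 47.8 CPM. Mural-like GCs held 375, 312, 358 and 333 CPM, above macrophage-like cells in every library and below endothelial-like cells in 3 of 4. Scarb1 lies on the minus strand at chr5:125277087-125341094, with 13 exons.

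**Figure D1:**
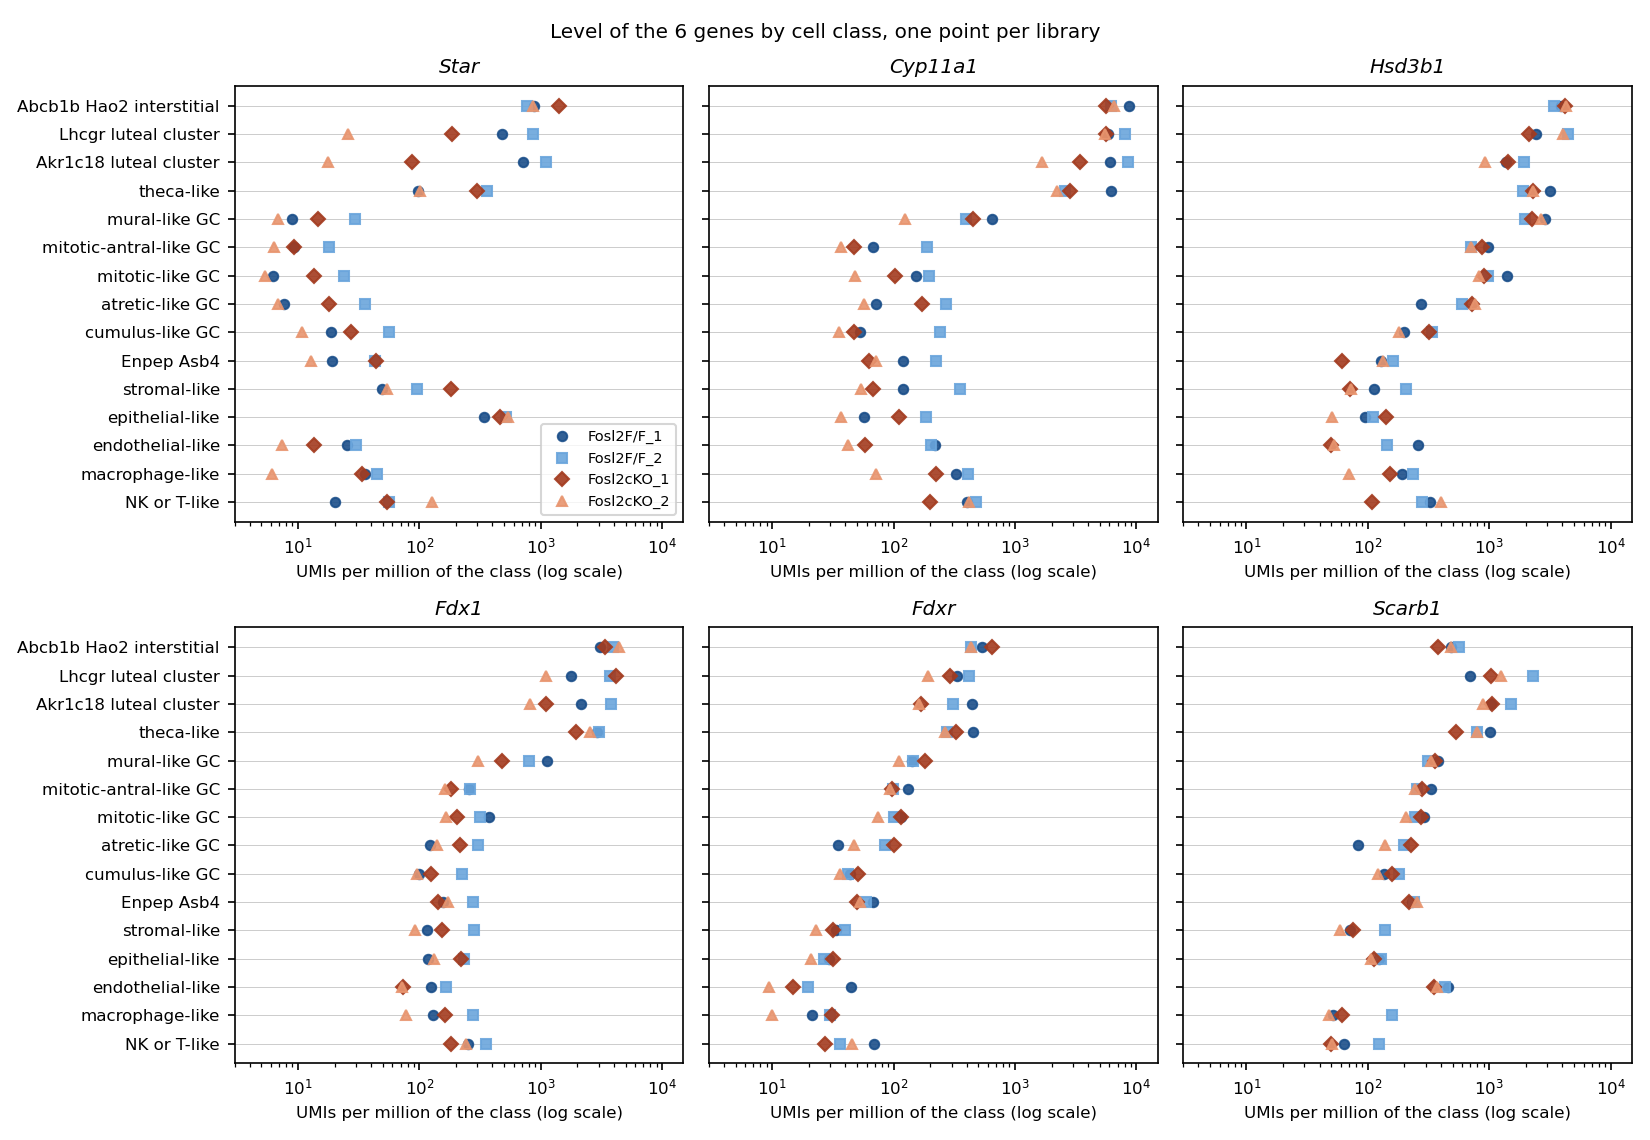
Level of each of the 6 genes by cell class, in CPM of the class on a log scale, with 1 point per library coloured by group. Luteal-like cells are shown as the clusters led by Lhcgr and by Akr1c18. Over luteal-like cells as a whole, Star stood at 702 and 906 CPM (Fosl2F/F) against 181 and 25.3 CPM (Fosl2cKO). Fdx1 separates the groups in mural-like GCs, where both Fosl2cKO libraries were lower for 15.4% of genes tested after TMM scaling.

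Because classes differ in size, the class with the highest level did not always hold most of a gene's transcripts. Interstitial, theca-like and luteal-like cells together held 79.4 to 84.6% of all Star UMIs of a library and 83.1 to 95.4% of those of Cyp11a1. For Hsd3b1 their share was only 30.4 to 74.4%, and GC-like cells held 21.6 to 67.3%. GC-like cells held 9.3 to 43.8% of Fdx1 UMIs, 19.1 to 46.7% of Fdxr UMIs and 14.3 to 54.4% of Scarb1 UMIs. Each upper end, that of Hsd3b1 included, was Fosl2F/F 1, where GC-like cells made up 56.0% of cells against 32.5 to 33.7% elsewhere. In the other libraries the highest share was 34.6% for Hsd3b1, 10.9% for Fdx1, 29.0% for Fdxr and 39.9% for Scarb1. The source of Star shifted between libraries, with luteal-like cells giving 26.7, 49.6, 4.1 and 1.6% and interstitial cells 48.7, 28.6, 76.0 and 70.7%. In both libraries labelled Fosl2cKO, interstitial cells were therefore the main source of Star, as they were in Fosl2F/F 1 to a lesser degree. Luteal-like cells made up 2.1, 6.3, 4.9 and 4.4% of cells in the same order.

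**Figure D2:**
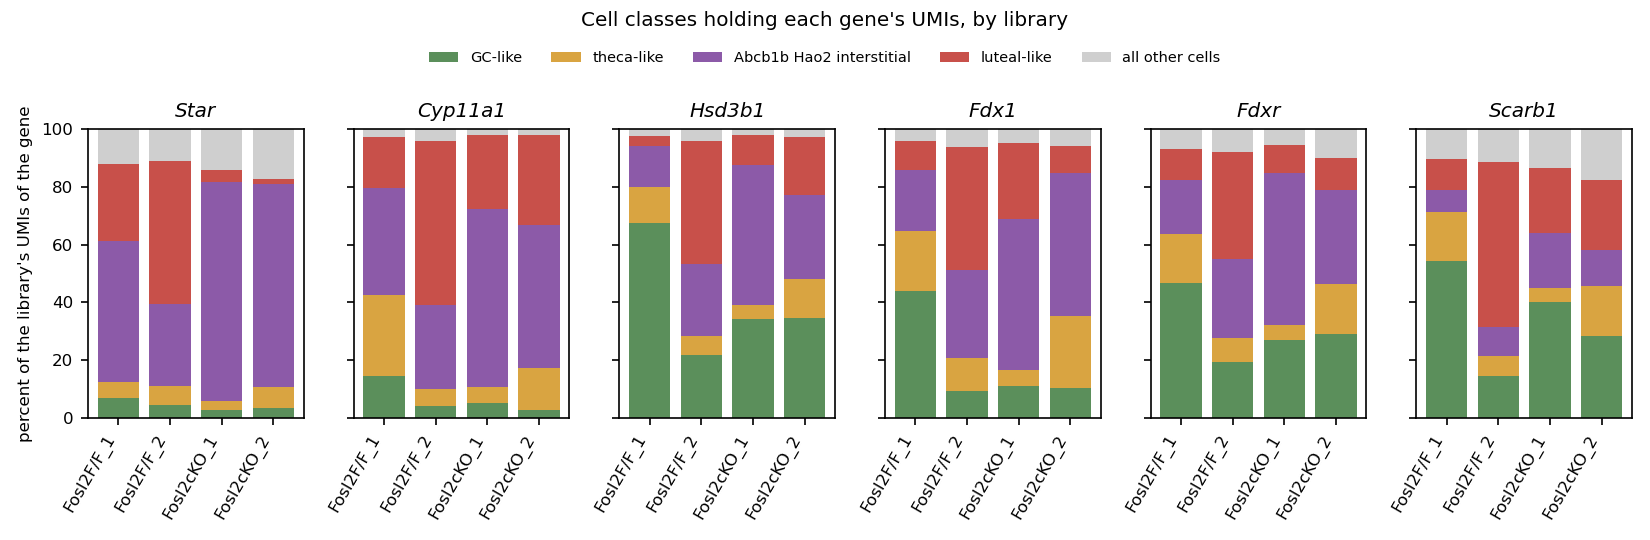
Share of each gene's UMIs that came from each cell class, in percent of the library's UMIs of that gene, with 1 bar per library. Star and Cyp11a1 came mainly from interstitial, theca-like and luteal-like cells. GC-like cells held 67.3% of Hsd3b1 UMIs in Fosl2F/F 1 and 21.6 to 34.6% in the other libraries.

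The share of cells with at least 1 UMI was compared after each cell was thinned to 2000 UMIs, which left out 503, 3970, 289 and 298 shallower cells. Star was detected in 57.2, 64.3, 83.5 and 58.4% of interstitial cells. In luteal-like cells the shares were 51.6, 62.7, 25.3 and 5.1%, and in mural-like GCs 2.0 to 4.8%. The thinned luteal-like cells numbered 128, 1157, 320 and 294. Of these, 111, 313, 14 and 25 came from a cluster led by Akr1c18, described below, so their make-up differed between libraries. Macrophage-like cells, which should lack Star, gave 2.9 to 8.3%, so the mural-like share is at background. In Fosl2cKO 2 the luteal-like share of 5.1% stood beside 3.2% of macrophage-like cells, and its luteal-like level was 3.46 times that of endothelial-like cells. Cyp11a1 was detected in 98.5 to 99.7% of interstitial cells and in 58.1, 52.4, 42.3 and 21.5% of mural-like GCs, against 16.0 to 49.6% of macrophage-like cells. For Hsd3b1 the mural-like share was 95.7 to 97.9%, far above the 13.7 to 36.6% of macrophage-like cells. Fdx1 was found in 74.2, 70.4, 54.2 and 45.5% of mural-like GCs, with 16.0 to 37.1% in macrophage-like cells. Median depth before thinning was 13684, 4592.5, 19174.5 and 18307 UMIs in GC-like cells and 6028, 2281.5, 8260 and 7778 UMIs in macrophage-like cells.

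**Figure D3:**
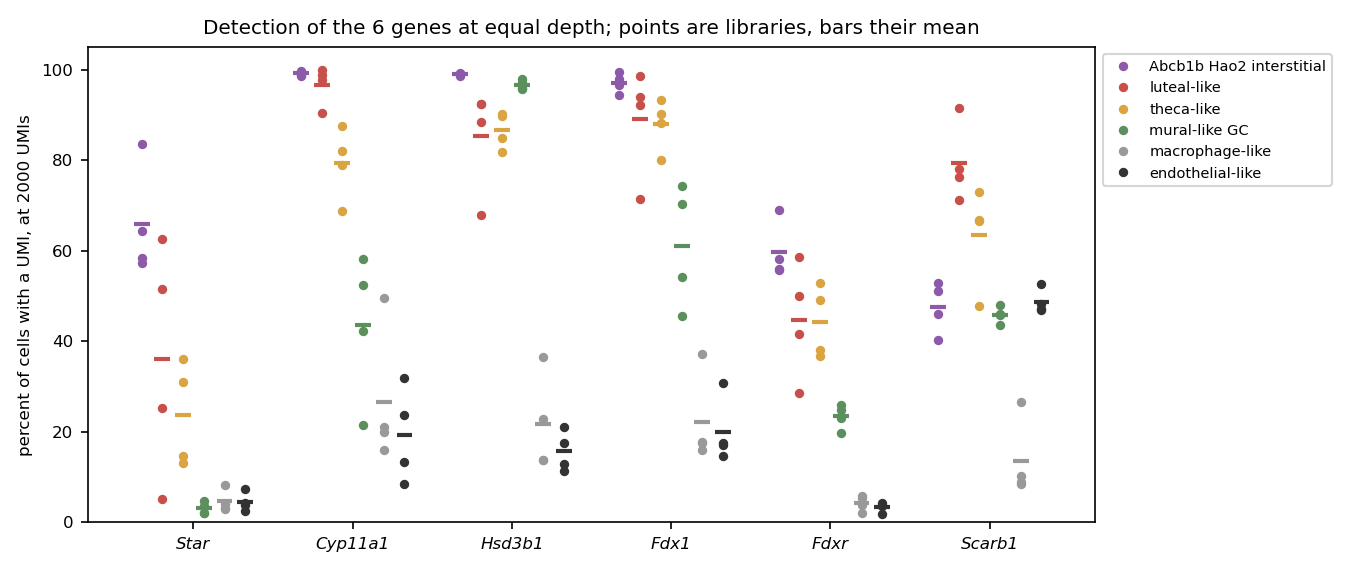
Share of cells with at least 1 UMI of each gene after thinning to 2000 UMIs per cell, in percent, by class and library. Macrophage-like cells mark the background, above which Star in mural-like GCs (2.0 to 4.8%) did not rise.

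The pathway was also counted within single cells at the same thinned depth. Star, Cyp11a1 and Hsd3b1 were found together in 65.0% of interstitial cells (mean of 4 libraries, range 55.7 to 82.8%), 30.5% of luteal-like cells (4.76 to 58.7%) and 19.7% of theca-like cells (11.4 to 30.1%). In mural-like GCs the mean was 1.13% and in macrophage-like cells 0.65%. The low luteal-like end of the range was Fosl2cKO 2 and the high end Fosl2F/F 2. By luteal cluster, the share was 29.4, 65.0, 22.2 and 4.83% in that led by Lhcgr, with 17 thinned cells in Fosl2F/F 1. It was 37.8, 41.5, 14.3 and 4% in that led by Akr1c18, with 14 thinned cells in Fosl2cKO 1. In Fosl2cKO 1 and 2 theca-like cells (25.2 and 12.2%) were above luteal-like cells (21.9 and 4.76%), the reverse of the order of the means. All 6 genes were found in the same cell in 18.3% of interstitial (14.7 to 22.2%), 15.6% of luteal-like (2.72 to 30.2%) and 7.08% of theca-like cells (4.26 to 11.1%). Together the 6 genes took 1.64% of all UMIs in interstitial cells, 1.39% in luteal-like, 0.98% in theca-like, 0.40% in mural-like and 0.07% in macrophage-like cells.

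The ratio of 2 genes' UMIs within a class does not scale with cell number or depth. Cyp11a1 UMIs per Hsd3b1 UMI were 2.26, 1.79, 1.34 and 1.53 in interstitial cells and 4.26, 2.06, 2.63 and 1.36 in luteal-like cells. In mural-like GCs the ratio was 0.225, 0.199, 0.202 and 0.046, below that of interstitial and of luteal-like cells in every library. Macrophage-like cells, with 1.70, 1.76, 1.46 and 1.02, lay near the interstitial values. Star UMIs per Cyp11a1 UMI were 6.04, 2.83, 4.17 and 14.6 in epithelial-like cells against 0.10, 0.125, 0.252 and 0.132 in interstitial cells. The same ratio was 0.109, 0.108, 0.152 and 0.085 in macrophage-like cells, 0.415, 0.272, 2.69 and 0.998 in stromal-like cells and 0.134 to 0.834 in pericyte or smooth muscle-like cells. The part of free RNA in these ratios was not tested.

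Over 23 classes and clusters, the levels of Cyp11a1 and Fdx1 were most alike among the members (Pearson r = 0.954), followed by Hsd3b1 and Fdxr (r = 0.926). Star was least like Hsd3b1 (r = 0.384) and Scarb1 (r = 0.477). Among 12265 genes, the closest to Star was Sbsn (r = 0.897), to Fdx1 the malic enzyme gene Me1 (r = 0.967), and to Hsd3b1 Cst8 (r = 0.937). Cyp11a1 was also close to the receptor genes Oxtr (r = 0.909) and Lhcgr (r = 0.903), and Scarb1 to Hmgcs1 of cholesterol synthesis (r = 0.853). Fdxr was closest to E330017L17Rik (r = 0.942). These values describe likeness of level over classes that share libraries and depth.

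Fdx1 was the member nearest to a call in the GC-like and mural-like comparisons, and Hsd3b1 was abundant in mural-like GCs of every library. The promoters of both are shown for these reasons and because FRA2 binds DNA as part of AP-1. Each is the 250 bases before the RefSeq start, read 5′ to 3′ on the minus strand of GRCm38.p6, for Fdx1 at chr9:51963603-51963852 and for Hsd3b1 at chr3:98859795-98860044. Capitals mark every match to the 6 motifs searched on both strands, which were the AP-1 site with the letters TGACTCA or its complement TGAGTCA, an SF-1 type site with the letters CAAGGTCA or the variant CAAGGTGA, the core of the cAMP response element with the letters TGACG, the GATA factor motif written AGATAA or alternatively TGATAA, the CCAAT box, and the GC box with the letters GGGCGG. None of these letters is contained in another motif.
Fdx1: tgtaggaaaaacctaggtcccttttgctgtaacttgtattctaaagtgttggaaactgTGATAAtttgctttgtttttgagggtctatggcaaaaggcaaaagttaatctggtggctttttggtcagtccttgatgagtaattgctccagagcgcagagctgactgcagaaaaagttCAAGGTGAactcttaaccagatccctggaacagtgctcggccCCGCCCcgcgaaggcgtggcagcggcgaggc
Hsd3b1: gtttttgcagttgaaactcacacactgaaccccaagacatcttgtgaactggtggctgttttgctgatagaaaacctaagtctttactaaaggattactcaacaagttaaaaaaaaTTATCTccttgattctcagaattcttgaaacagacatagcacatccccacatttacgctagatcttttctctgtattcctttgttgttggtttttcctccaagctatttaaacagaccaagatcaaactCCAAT
The Fdx1 window held an SF-1 type match beginning 73 bases upstream of the start, a GATA match at 192 and a GC box at 31. The Hsd3b1 window held a GATA match at 134 and CCAAT at 5, and neither window held AP-1 letters. Of 32851 windows of the same length, 4.46% held AP-1, 2.21% the SF-1 type site, 17.8% the cAMP response core, 16.6% GATA, 33.8% CCAAT and 32.7% the GC box. Matches are letters only, and no match says nothing about binding elsewhere.

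The groups were compared within each class on UMIs summed per library, with edgeR over all genes tested and Benjamini-Hochberg adjustment. A call needed an adjusted p below 0.1 together with a log2 fold change larger than 0.25 in either direction. None of the 6 genes was called in any of the 6 comparisons, which were GC-like, mural-like, theca-like, interstitial and luteal-like cells and all cells of a library. The background was low as well. Of all genes tested, 0.0058% were called in GC-like cells, 0.0155% in mural-like GCs, 0% in theca-like cells, 0.125% in interstitial cells, 0.0156% in luteal-like cells and 0.00492% over all cells. At an unadjusted p under 0.05 by the same edgeR test, 802, 572, 433, 580, 1414 and 823 genes were below the limit in those comparisons.

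In the GC-like and mural-like comparisons, Fdx1 was the member nearest to a call. Further GC subclasses named from markers were tested beside the 6 comparisons, and no member was called there. The smallest adjusted p of a member was 0.324 in mitotic-like, 0.346 in mitotic-antral-like, 0.478 in cumulus-like and 0.942 in atretic-like GCs (edgeR). The Fdx1 mean in mural-like GCs was 958 ± 223 CPM in Fosl2F/F and 394 ± 125 CPM in Fosl2cKO libraries (SD, n = 2 each). The log2 fold change was -1.34 (SE 0.29, edgeR, adjusted p = 0.545), and in all GC-like cells it was -1.09 (SE 0.25, edgeR, adjusted p = 0.656). The groups did not overlap in either population, as was true on the TMM scale with both Fosl2cKO libraries lower for 15.8% of genes tested in GC-like cells and 15.4% in mural-like GCs. DESeq2 called Fdx1 in both (GC-like -1.08, adjusted p = 0.0163; mural-like -1.34, adjusted p = 0.00497), but it also called 0.962% and 0.629% of all genes. Fdx1 was 4.27 to 9.0 times its endothelial-like level in mural-like GCs of the 4 libraries. With that level taken off each library, a step added after seeing the data, the log2 ratio of group means was -1.34 in place of -1.28. The granulosa marker list summed to 27161, 18477, 15427 and 17374 CPM in mural-like GCs and to 16081, 10382, 9565 and 9912 CPM in GC-like cells, lower in both Fosl2cKO libraries in each. The luteal list summed to 643, 314, 254 and 168 CPM in GC-like cells, also lower in both, and to 1707, 791, 912 and 466 CPM in mural-like GCs, where the groups overlapped. Clustered without integration, the mural-like class held 1333, 597, 14 and 21 cells, so few cells of the Fosl2cKO libraries were in the class in that setting. The part of any of these in the Fdx1 difference was not tested.

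Cyp11a1 in GC-like cells was also lower in both Fosl2cKO libraries (243 and 244 against 148 and 55.7 CPM), with a log2 fold change of -1.30 (SE 0.41, edgeR, adjusted p = 1.0). Here the level was only 1.12 to 2.53 times that of endothelial-like cells, and it lay within or below the range of macrophage-like cells (72.2 to 412 CPM). The part of free RNA in it was not tested. Over 6 immune and endothelial classes, the highest Cyp11a1 level was 404, 987, 222 and 418 CPM, above that of GC-like cells in each library. Only the endothelial-like level was taken off, which left GC-like cells 26.0, 39.6, 89.4 and 13.8 CPM. The log2 ratio of group means then turned from -1.26 to 0.65. The turn rested on Fosl2cKO 1, since Fosl2cKO 2 stayed below both Fosl2F/F libraries. In mural-like GCs, where the groups overlapped, the log2 fold change was -0.92 (SE 0.54, edgeR) and the ratio moved from -0.85 to -0.38. Without Fosl2cKO 1, edgeR called Cyp11a1 (-2.13 in GC-like and -2.12 in mural-like cells, adjusted p = 0.00113 and 0.00583) and Fdx1 (-1.34 and -1.70, adjusted p = 0.0921 and 0.0192), among 0.964% and 1.21% of all genes called in that setting. Such a fit leaves 1 library in a group and takes its spread from the 2 libraries of the other group, so the lone library is assumed to vary as they do. With each of the other libraries left out in turn neither was called, and over all 4 such fits Cyp11a1 ranged from -2.13 to -0.78 in GC-like cells and from -2.12 to -0.28 in mural-like GCs. With every counted gene kept in the edgeR test, both genes were called in both populations (Cyp11a1 adjusted p = 0.0134 and 0.0146, Fdx1 adjusted p = 0.0109 and 6.45e-06), among 1.09% and 1.34% of genes.

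The other members were not called in GCs either. In GC-like cells the log2 fold change was -0.27 for Hsd3b1, -0.09 for Fdxr and -0.12 for Scarb1. Star, near or below the endothelial-like level there, was at -0.88, and at -0.82 in mural-like GCs. In mural-like GCs, Hsd3b1, Fdxr and Scarb1 were at -0.04, -0.04 and -0.05 and their groups overlapped.

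In luteal-like cells Star had the widest difference of any member in any class compared. Its mean was 804 ± 144 CPM in Fosl2F/F and 103 ± 110 CPM in Fosl2cKO libraries (SD, n = 2 each), from 2483 and 14615 against 1262 and 164 UMIs. The log2 fold change was -3.07 (SE 0.89), and it did not pass the test (edgeR, adjusted p = 0.344). With the endothelial-like level of each library taken off, the log2 ratio of group means was -3.06 in place of -2.96. The Fosl2cKO libraries differed from each other by several fold, and leaving out each library in turn gave -5.14 to -2.26 with no call. DESeq2 called it (-3.05, adjusted p = 0.00275) among 3.53% of all genes, and edgeR without a gene filter called it (-3.06, adjusted p = 8.62e-09) among 4.91%. Marker sums moved with the groups in these cells. The luteal list stood at 12569, 7579, 3547 and 7533 CPM, lower in both Fosl2cKO libraries by a narrow margin in Fosl2cKO 2, while the granulosa list (1423, 1583, 2244 and 1798 CPM) and the theca list (188, 187, 267 and 759 CPM) were higher in both. Their part in the Star difference was not tested. Across genes, 24.5% had both Fosl2cKO libraries below both Fosl2F/F libraries in this class, the highest such share of the classes compared, and 3 of the 6 members did (Star, Cyp11a1 and Fdxr).

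The luteal-like class was made of 2 clusters that the libraries filled unequally. A cluster led by Lhcgr, the luteinizing hormone receptor gene, held 61, 897, 316 and 287 cells, and one led by Akr1c18, whose enzyme inactivates progesterone in regressing corpora lutea, held 114, 344, 14 and 25 cells. Star stood at 477, 856, 187 and 26.0 CPM in the first and at 714, 1099, 86.3 and 17.8 CPM in the second, so the groups separated in both. Over luteal-like cells as a whole 24.5% of genes were lower in both Fosl2cKO libraries, and that share is not given here for each cluster. The Akr1c18 cluster value of Fosl2cKO 1 rests on 14 cells. The Lhcgr cluster value of Fosl2F/F 1 rests on 180222 UMIs in its 61 cells, against 5971443 to 12879654 UMIs in the other libraries. Within the Lhcgr cluster alone the log2 fold change was -2.76 (SE 0.85, edgeR, adjusted p = 0.780), where 0.0159% of all genes were called. Without Fosl2cKO 1, the higher of the Fosl2cKO pair, it was -4.84 and was called (edgeR, adjusted p = 0.000663), among 0.628% of genes, in a fit whose spread came from the 2 Fosl2F/F libraries alone and which left out the Fosl2cKO library nearer to them. The Akr1c18 cluster had too few cells in Fosl2cKO 1 for a test. Akr1c18 itself stood at 2599, 466, 10.9 and 0.3 CPM in luteal-like cells (log2 fold change -8.21, SE 1.67, edgeR, adjusted p = 0.264). How far the age of the corpora lutea in each ovary moved with Star was not tested.

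Fdxr in luteal-like cells was at -0.95 (SE 0.35, edgeR, adjusted p = 0.418), and its groups did not overlap. Cyp11a1 was at -0.54, Scarb1 at -0.61, Fdx1 at -0.33 and Hsd3b1 at 0.01. For Hsd3b1 and Fdx1 the 2 libraries of a group lay further apart than the group means.

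Theca-like and interstitial cells are not the labelled target of the Cre. In theca-like cells Cyp11a1 was at -0.91 (SE 0.47, edgeR), a value set by Fosl2F/F 1 at 6231 CPM, since the other libraries ranged from 2216 to 2827 CPM and it was -0.08 without that library. Scarb1 was at -0.53 and Fdx1 at -0.48, where 14.1% of genes tested had both Fosl2cKO libraries lower after TMM scaling (edgeR's library scaling). Fdx1 did not overlap, while Scarb1 was level in Fosl2F/F 2 and Fosl2cKO 2 (786 and 787 CPM) and separated the groups only on the TMM scale. In interstitial cells Star was at 0.44 (SE 0.33), Scarb1 at -0.32, Cyp11a1 at -0.33, and Hsd3b1, Fdx1 and Fdxr at 0.17, 0.11 and 0.13. With 1 library left out, Star ranged from 0.015 (without Fosl2cKO 1) to 0.78 and Cyp11a1 from -0.59 to -0.02 (without Fosl2F/F 1). Hsd3b1 was higher in both Fosl2cKO libraries there, as were 15.3% of genes tested on the TMM scale. Scarb1 was lower in both, by a narrow margin (485 CPM in the lower Fosl2F/F and 484 CPM in the higher Fosl2cKO library), as were 12.9% of genes on the TMM scale. Cyp17a1, the androgen enzyme that defines theca cells, stood at 4302, 2054, 47.0 and 1778 CPM in theca-like cells, so Fosl2cKO 1 stood apart in that class.

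**Figure D4:**
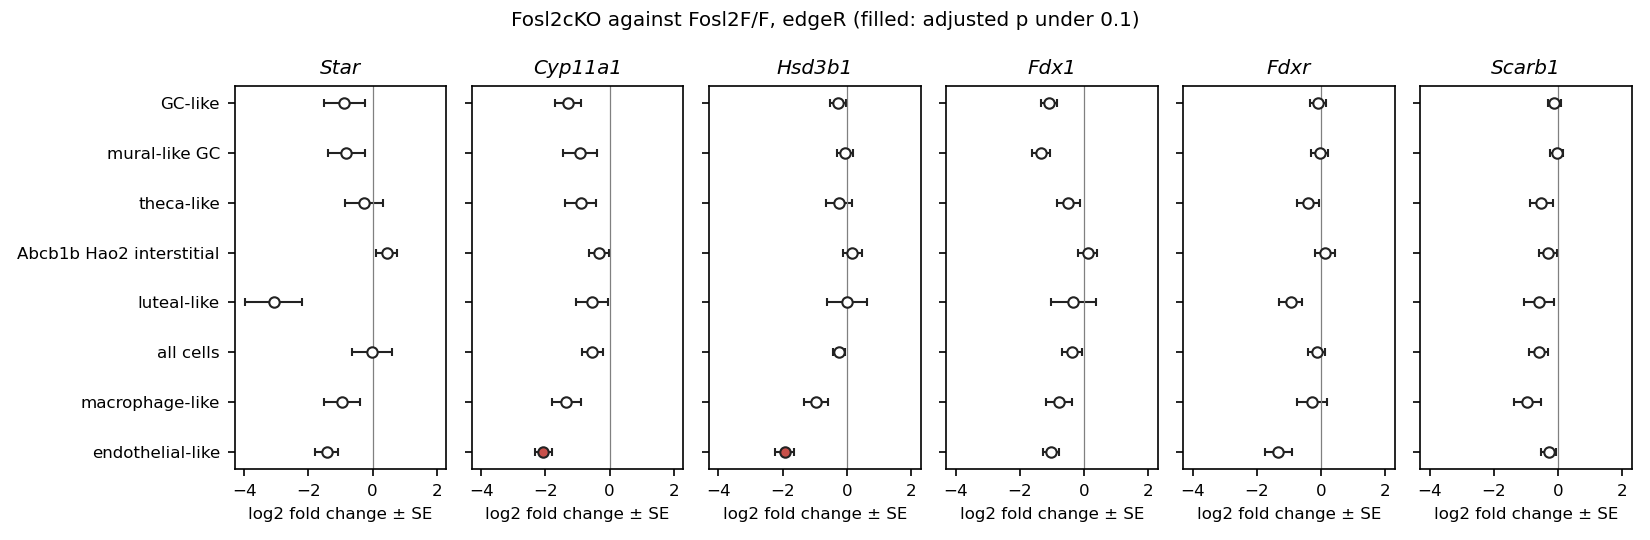
Log2 fold change (Fosl2cKO over Fosl2F/F) of each gene in each class compared, with bars of 1 standard error from edgeR. None of the 36 values in GC-like, mural-like, theca-like, interstitial and luteal-like cells and over all cells passed the test. In endothelial-like cells Cyp11a1 (-2.07) and Hsd3b1 (-1.93) passed it (edgeR, adjusted p = 0.00363 and 0.0108). That class is not known to make steroids and is used as a background level, and the part of RNA from other cells was not tested. Star in luteal-like cells lay at -3.07 (SE 0.89) and Fdx1 in mural-like GCs at -1.34 (SE 0.29).

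Over all cells of a library, Star stood at 86.1, 282, 275 and 97.1 CPM, with 1 library of each group high and 1 low, and the log2 fold change was -0.03. Cyp11a1 was at -0.54, Scarb1 at -0.61, Fdx1 at -0.37, Hsd3b1 at -0.24 and Fdxr at -0.14. Without Fosl2F/F 2, Cyp11a1 was at -0.04 and Scarb1 at -0.15, and without Fosl2F/F 1 they were at -0.89 and -0.94. In such sums fewer cells of a type and less RNA per cell cannot be told apart.

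Whether a member differed more in one class than in another was tested on the difference between 2 classes of the same library, for 4 pairs of classes. No gene was called in any pair by limma (0% of genes tested, with 995 genes below an unadjusted p of 0.05 for luteal-like minus GC-like). Star differed by -2.95 between luteal-like and GC-like cells (SE 0.80, limma, adjusted p = 0.600). Fdx1 differed by 1.2 between interstitial and GC-like cells (limma, adjusted p = 1.0) and by -0.72 between mural-like and other GC-like cells (limma, adjusted p = 0.999). That the groups differ more in one class than in another is thus not shown for these members.

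Members were also compared in classes not known to make steroids. In endothelial-like cells Cyp11a1 (log2 fold change -2.07, SE 0.26, edgeR, adjusted p = 0.00363) and Hsd3b1 (-1.93, SE 0.30, edgeR, adjusted p = 0.0108) fell, where 0.46% of all genes were called. With each library left out in turn the log2 fold change ranged from -2.31 to -1.85 for Cyp11a1 and from -2.33 to -1.45 for Hsd3b1. All 6 members were lower in both Fosl2cKO libraries there, as were 15.2% of genes. Cyp17a1 was at 248 CPM in the endothelial-like cells of Fosl2F/F 1, and the granulosa markers summed to 659, 460, 254 and 263 CPM and the luteal markers to 133, 141, 30.8 and 40.3 CPM in that class. In macrophage-like cells 0.197% of genes and none of the members were called by edgeR (Cyp11a1 -1.36, Hsd3b1 -0.97, Fdx1 -0.78). In stromal-like cells Cyp11a1 fell (-1.97, edgeR, adjusted p = 0.0921), where 0.19% of genes were called, but the call was lost without Fosl2F/F 1 (-2.52, edgeR, adjusted p = 0.209) and without Fosl2F/F 2 (-0.995, edgeR, adjusted p = 0.786). The part that RNA from other cells had in these values was not tested.

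**Figure D5:**
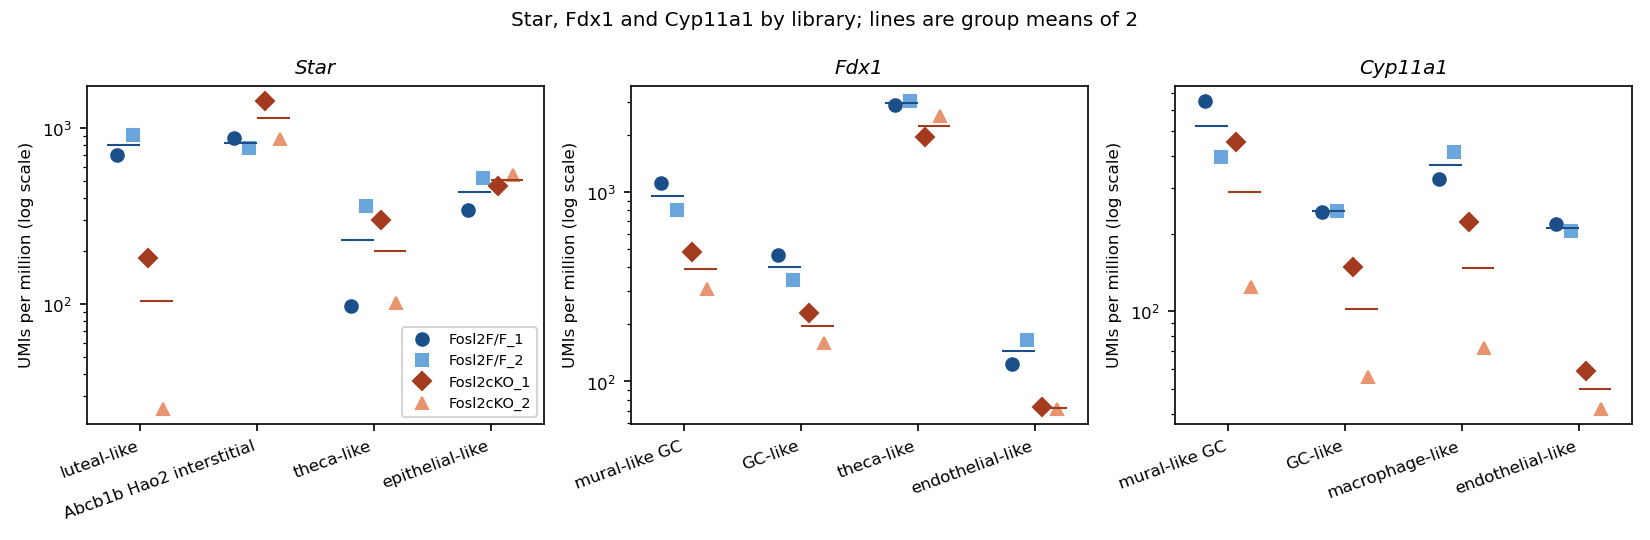
Level of Star, Fdx1 and Cyp11a1 per library, in CPM of the class on a log scale, in chosen classes for each gene. Each library has 1 point and each group mean a line. The groups stand apart for Star in luteal-like cells and Fdx1 in mural-like GCs, among other pairs, and the 2 Fosl2cKO libraries differ from each other for Star (181 and 25.3 CPM). After TMM scaling, both Fosl2cKO libraries were lower for 24.5% of genes tested in luteal-like cells and 15.4% in mural-like GCs.

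The rest of the pathway was read from 4 lists. They held 14 genes of cholesterol uptake, storage and transport, 8 of mitochondrial import and electron transfer, 15 steroid enzymes beside or after progesterone and 20 regulators. Of these 13 to 14, 8, 9 to 13 and 18 to 20 were tested in a comparison, and none of those tested was called in any of the 6. In GC-like cells the median log2 fold change was 0.04 for the 14 transport genes, -0.18 for the 8 import genes, -0.17 for the 11 steroid enzymes tested and 0.03 for the regulators, beside -0.02 for all genes. In luteal-like cells the medians were 0.06, -0.41, -0.39 and 0.37, in the same order, beside -0.02 for all genes. The median of the 6 members was -0.58 in luteal-like and -0.58 in GC-like cells, -0.44 in mural-like GCs, -0.45 in theca-like and 0.12 in interstitial cells. It was -0.96 in macrophage-like and -1.38 in endothelial-like cells. Abca1, which exports cholesterol, stood at 351, 513, 1235 and 1011 CPM in theca-like cells (log2 fold change 1.30, edgeR, adjusted p = 0.877). Lhcgr stood at 599, 252, 152 and 114 CPM in mural-like GCs (log2 fold change -1.75, edgeR, adjusted p = 0.570). Cyp19a1, the aromatase gene whose promoter drives the Cre, stood at 497, 165, 77.5 and 147 CPM in the same cells. Acbd3, a partner of the mitochondrial protein TSPO, was fitted between 0.74 and 1.0 higher on the log2 scale in each of the 6 comparisons without passing the test, and it rose in endothelial-like cells (log2 fold change 1.17, edgeR, adjusted p = 0.0944). In the same endothelial-like cells 4 listed genes fell, which were Gramd1b of cholesterol transport (-1.77, edgeR, adjusted p = 0.0207), Akr1cl (-1.67, edgeR, adjusted p = 0.0270), the prolactin receptor gene Prlr (-1.55, edgeR, adjusted p = 0.0443) and Cyp17a1 (edgeR, adjusted p = 0.0430), whose UMIs there came mainly from Fosl2F/F 1. Akr1c18 fell in stromal-like (edgeR, adjusted p = 0.00528) and macrophage-like cells (edgeR, adjusted p = 0.0120) and in a cluster led by Enpep and Asb4 (edgeR, adjusted p = 0.0122), where 0.0649% of all genes were called. In that cluster it was near the floor, at 7.2, 9.4, 0 and 0.2 CPM on the TMM scale. In luteal-like cells, its main source, it was lower in both Fosl2cKO libraries too. Lhcgr fell in stromal-like cells (-2.18, edgeR, adjusted p = 0.0773). The part that RNA from luteal-like or other cells had in these values was not tested.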

How the data were processed

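Single-cell RNA was sequenced from ovaries in 4 libraries (10x 3′ v3). The authors aligned reads with Cell Ranger to GRCm38, kept uniquely mapped reads and deposited UMI counts. The methods and the file headers name different Cell Ranger versions, and whether the CellBender correction named in the methods is in these counts is not stated. The submitters' processing notes name Seurat 4.1.0. All columns were used.

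The study's cell filters were applied, which ask for 500 genes and 1000 UMIs and limit mitochondrial UMIs to 10% and hemoglobin UMIs to 0.1%. Scrublet (scanpy 1.11.5) scored doublets, removed at 0.8% per 1000 cells (5.74 to 19.4% of a library), which left 104303269 to 111314200 UMIs per library. Libraries were normalized with SCTransform (sctransform 0.4.2), integrated by reciprocal PCA in Seurat 5.3.0 with the 6 genes and the pathway lists left out of the features, clustered at a resolution of 0.8, and named from marker lists with limits set after clusters were seen. The 6 genes, lists and tests were chosen with earlier results of these data known. The genes named are the 6, the listed genes whose values bear on them, and the 5 most correlated genes of each by level over classes with at least 20 CPM in 1 of them; Lhcgr, Cyp19a1, Acbd3 and Abca1 were picked from the lists after their values were seen.

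UMIs were summed per class and library and tested with edgeR 4.0.16 (TMM, filterByExpr, quasi-likelihood, Benjamini-Hochberg), with DESeq2 1.42.0 and other settings as alternatives, and limma 3.58.1 for differences between classes (prior count 2). Scripts were tested on simulated data. Each class needed 20 cells per library. Shared replicate numbers did not pair the libraries. Promoters came from RefSeq (GRCm38.p6) and gene positions from GENCODE M21. Star and Scarb1 are named without a promoter. Depth limits precision at low counts, and no interval was needed beside values given per library.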

Additional observations from a re-analysis of the deposited data

How the results depend on the processing

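The count of members called was 0 in each of the 6 comparisons and stayed 0 under 94 alternatives, counted over the comparisons, and moved under 8. Without a gene filter it was 2 in GC-like cells, 2 in mural-like GCs and 1 in luteal-like cells, and with DESeq2 it was 1 in each of these. Leaving out each library in turn gave 0 to 2 in GC-like cells and 0 to 2 in mural-like GCs, with the higher count without Fosl2cKO 1. The cause of these shifts was not tested. Cyp11a1 in stromal-like cells was also lost at a limit of 0.05 and without a gene filter (adjusted p = 0.803, edgeR), and Cyp11a1 and Hsd3b1 in endothelial-like cells were called in each setting run there, which did not include other clusterings or cell filters and where fits without 1 library took their spread from the other group.

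Of 39 fold changes recomputed under the alternatives (642 values in all), 19 turned direction under at least 1, in 32 of the values, 28 of these with 1 library left out. With each library left out in turn, the log2 fold change of Star ranged from -1.58 to 0.34 in GC-like cells, from -1.48 to 0.24 in mural-like GCs, from -1.23 to 0.93 in theca-like cells and from -0.95 to 0.99 over all cells. Hsd3b1 ranged from -0.59 to 0.15 in GC-like cells, from -0.29 to 0.27 in mural-like GCs, from -0.58 to 0.23 in theca-like cells and from -0.56 to 0.92 in luteal-like cells. Fdxr ranged from -0.46 to 0.20 in GC-like cells, from -0.43 to 0.26 in mural-like GCs, from -0.73 to 0.036 in theca-like cells, from -0.22 to 0.41 in interstitial cells and from -0.58 to 0.19 over all cells. Scarb1 ranged from -0.33 to 0.063 in GC-like cells, from -0.17 to 0.11 in mural-like GCs and from -1.05 to 0.015 in luteal-like cells. Fdx1 ranged from -0.064 to 0.27 in interstitial cells, from -1.60 to 0.34 in luteal-like cells and from -0.71 to 0.12 over all cells. Hsd3b1 in mural-like GCs moved to 0.028 with the 6 genes among the clustering features, and in luteal-like cells to -0.0052 without a gene filter, -8.2e-05 over 2000 UMIs per cell and -0.29 in the Lhcgr cluster alone. With the endothelial-like level taken off, an alternative chosen after seeing the data, the log2 ratio of group means turned to 0.65 for Cyp11a1 and 0.36 for Fdxr in GC-like cells, and 21 other ratios kept their direction. The levels of other background classes were not taken off.

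Libraries with the same replicate number did not deviate together (correlation -0.17 to 0.11 over genes). With a replicate block, 0 members were called in each of the 6 comparisons, as with the numbers crossed, a pairing added after seeing the data. In GC-like cells edgeR called 1 gene with the block, 49 with crossed numbers and 1 without either, in luteal-like cells 0, 4 and 2, and in theca-like cells 41, 28 and 0. In the Lhcgr cluster, Star was called with the replicate block (-3.32, adjusted p = 0.000314), and the block called 146 genes there against 2. In stromal-like cells the block lost Cyp11a1 (-1.80, adjusted p = 0.23).

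The share of cells with a UMI moved by more than the spread between libraries without thinning for 36 of 42 shares, while the 24 shares of a library's UMIs did not when doublets were kept. Mural-like GCs without integration gave no value, since only 14 and 21 cells of the Fosl2cKO libraries were left in the class. Low counts limit Star in GC-like cells, where its level was 0.349 to 1.21 times that of endothelial-like cells.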
